A study of Mus musculus and Homo sapiens with 30 samples.

Results

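SkBr3 cells kept with the secretome of obese inguinal adipocytes were compared with SkBr3 cells in control medium, over 8 libraries of the 30 in the series. The 8 were chosen by cell line and medium alone, as their titles give them, 4 with obese secretome and 4 controls. Cells of all groups were plated below confluence in DMEM with 10% FBS and grown for 36 h, then kept for 16 h in their treatment. The control group received standard growth medium, and the obese group received a mixture of 50% secretome and 50% standard growth medium. Another 4 SkBr3 libraries received the lean secretome at the same share and entered the fit for their spread. No genotype, transgene or drug was named for any group. The control medium was not diluted, so the effect of the secretome and that of replacing part of the growth medium cannot be told apart. The labels do not say whether replicates were separate cultures or separate batches of secretome, so p-values measure only the spread between these libraries, which may be technical.

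SkBr3 is an established human breast cancer line, known for amplification of the receptor gene ERBB2 (HER2) and for lacking the estrogen receptor. A secretome is the medium that cells have conditioned with what they release. Adipocytes release adipokines, other cytokines, growth factors, fatty acids and other lipids, and their output is known to change in obesity. The human gene IDs are not paired with names in the deposited table, and a table of human names was not used here. Genes are therefore given by Ensembl ID, and only 2 that rose and 2 that fell are named. For the same reason the line was not checked against its marker genes, the markers of adipocytes and other cell types were not examined, and no pathway is described.

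Total counts of the controls lay between 18479433 and 26114542, and those of the obese libraries between 22096245 and 29195499. The means, 22088800 and 25231300, did not differ beyond the spread (exact permutation test, two-sided, p = 0.229, adjusted p = 0.457 over 2 such tests; the smallest p that 4 against 4 allows is 0.0286). The 10 most abundant genes took 6.17 ± 0.0472% of the counts (SD, n = 4) in control medium and 6.15 ± 0.101% with the obese secretome (exact permutation test, two-sided, p = 0.943, adjusted p = 0.943). No 2 replicates agreed within counting error alone. The chi-square per degree of freedom of replicate pairs ran from 1.93 to 3.02 over the 6 control pairs and from 3.35 to 7.84 over the 6 obese pairs. All 6 obese values were above all 6 control values, but the pairs of a group share libraries and are not independent. The measure also grows with depth, which was somewhat higher in the obese libraries. The part of depth in the difference was not tested.

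The obese libraries stood at unequal distances from the controls on the first principal component of the 12 SkBr3 libraries, which held 46.4% of the variance of log2 CPM (CPM, each count divided by its library size after TMM scaling). The controls scored -20.9, -18.6, -23.3 and -19.2 for replicates 1 to 4. Obese replicates 1 and 4 scored -4.76 and -6.38, and obese replicates 2 and 3 scored -14.9 and -16.0. All 4 obese libraries lay above all 4 controls and below all 4 lean libraries, which scored 17.6 to 40.8. With the lean libraries left out, the first component of the 8 libraries held 21.3% of the variance. It again placed obese replicates 1 and 4 farther from the controls than obese replicates 2 and 3. The order of obese replicates 2 and 3 was reversed. There the controls lay between -12.4 and -8.86, obese replicates 2 and 3 at 1.69 and 5.11, and obese replicates 1 and 4 at 18.8 and 17.3. The components were computed from the measured values, so these scores are given as a description with no test.

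**Figure D1:**
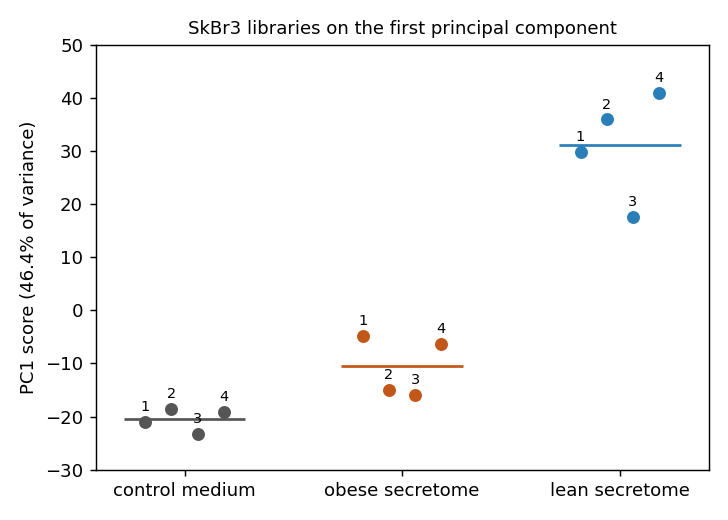
Score of each SkBr3 library on the first principal component of log2 CPM (y axis, no unit), by medium (x axis), with the replicate number above each point and a line at the group mean. The 4 obese libraries lie between the controls and the lean libraries, with replicates 1 and 4 at -4.76 and -6.38 and replicates 2 and 3 at -14.9 and -16.0.

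Few genes were called as different between obese secretome and control medium, and most of those changed by little. A gene that was not called may still differ. Of 14874 genes tested, edgeR's quasi-likelihood test called 172 at a Benjamini-Hochberg adjusted p under 0.05, or 1.16%. There were 90 higher with the obese secretome (0.605%) and 82 lower (0.551%). At an unadjusted p under 0.05 there were 2039 genes, or 13.7%. The called genes had a median absolute log2 fold change of 0.24, with quartiles of 0.19 and 0.34. The median was 0.29 in the genes that rose and 0.21 in those that fell. Over all genes tested the median absolute log2 fold change was 0.08, and the median signed log2 fold change was 0.0029.

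The genes that rose and those that fell differed in size and in abundance. Of the 90 that rose, 19 had a log2 fold change of at least 0.5 and 5 of at least 1. Of the 82 that fell, 1 had a change of that size and none reached 1. The 5 large increases were in scarce transcripts, with mean levels of 0.422 to 1.47 CPM over the 8 libraries. The median level (mean log2 CPM) was 5.59 in the genes that rose, 6.94 in those that fell and 4.36 in all genes tested. In the class at 7 or more on that scale, 54 of 1743 were called (3.10%), 13 higher and 41 lower. In the class under 1, 6 of 3266 were called (0.184%), all of them higher. The median standard error of the log2 fold change was 0.0391 in the abundant class and 0.306 in the scarce class. The filter on low counts worked by medium, so a scarce gene could enter the test through the medium where it was high. No trait of the genes that rose is therefore read from the scarce class. The difference between the directions in size or level was not tested.

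**Figure D2:**
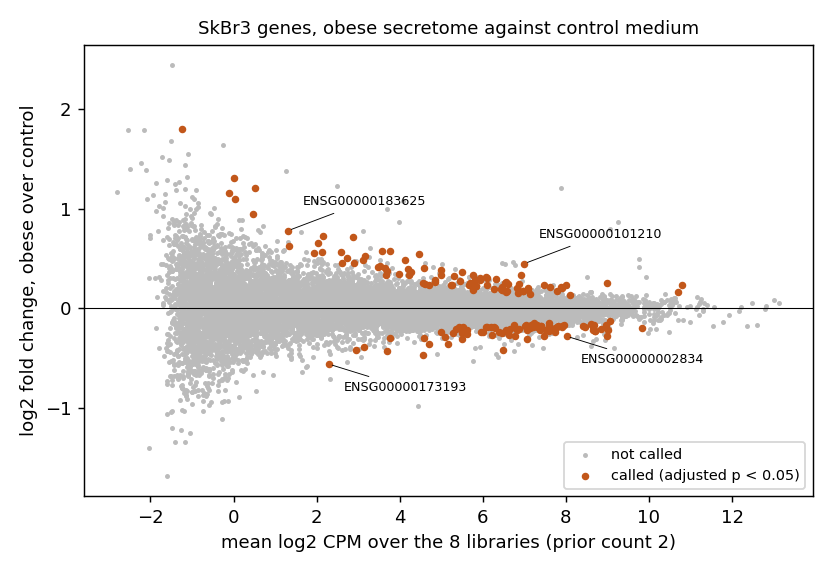
Log2 fold change of obese over control (y axis) against mean log2 CPM over the 8 libraries (x axis) for 14874 genes, with the 172 called genes in orange and the 4 named IDs marked. Called genes lie close to 0 at high levels, and the 5 called genes that changed by at least 1 are all increases in scarce transcripts.

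The control and obese libraries did not overlap in 1629 of the 14874 genes, or 11.0%. They did not overlap in 167 of the 172 called genes, which the test itself chose for such separation. Within the called genes, the 4 obese libraries differed in how far they lay from the controls. Obese replicate 4 was the library farthest out in 85 of the 172 called genes, replicate 1 in 47, replicate 3 in 35 and replicate 2 in 5. Obese replicate 2 was the one nearest to the controls in 112 genes, replicate 3 in 37, replicate 1 in 18 and replicate 4 in 5. Among the 90 increases replicate 4 was farthest out in 53, and among the 82 decreases it was farthest in 32 and replicate 3 in 27. These counts were not made over all genes tested, so whether the order is particular to the called genes was not tested. Over all genes tested, obese replicate 4 lay above all controls in 27.0% and below all of them in 27.4%. For obese replicate 2 the shares were 21.9% and 21.8%.

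The count of called genes changed with each library left out, and stayed within 1.5 times of 172 only without obese replicate 3. Every such fit had 1 library fewer than the reported one, and the part of that in the lower counts was not tested. Leaving out a control gave 39 (replicate 1), 47 (replicate 2), 68 (replicate 3) or 36 (replicate 4) calls. Leaving out an obese library gave 41 (replicate 1), 374 (replicate 2), 121 (replicate 3) or 20 (replicate 4). Of the 172 genes, 18 were called in all 8 of these fits, 11 higher and 7 lower, and 3 were called in none. A further 59 were called in just 1 of the 8. The 11 increases called in every fit had log2 fold changes of 0.24 to 0.72 at mean levels of 7.56 to 511.4 CPM. The 7 decreases had changes of -0.28 to -0.22 at 49.5 to 512.0 CPM. In all 18, the obese libraries did not overlap the controls, against 167 of the 172 called genes and 1629 of all 14874 tested (11.0%).

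Each obese library was also read against the genes called without it. Of the 20 genes called without obese replicate 4, that library lay beyond all 4 controls on the called side in 20. The counts were 40 of 41 for obese replicate 1, 110 of 121 for obese replicate 3 and 287 of 373 for obese replicate 2, leaving out 1 gene that was not among the 14874. Over all genes tested, a given obese library lay above all controls in 21.9% to 27.0% of genes and below all of them in 21.8% to 27.4%. The same controls entered the calls and this reading, which favours the called side, so the shares are a description.

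**Figure D3:**
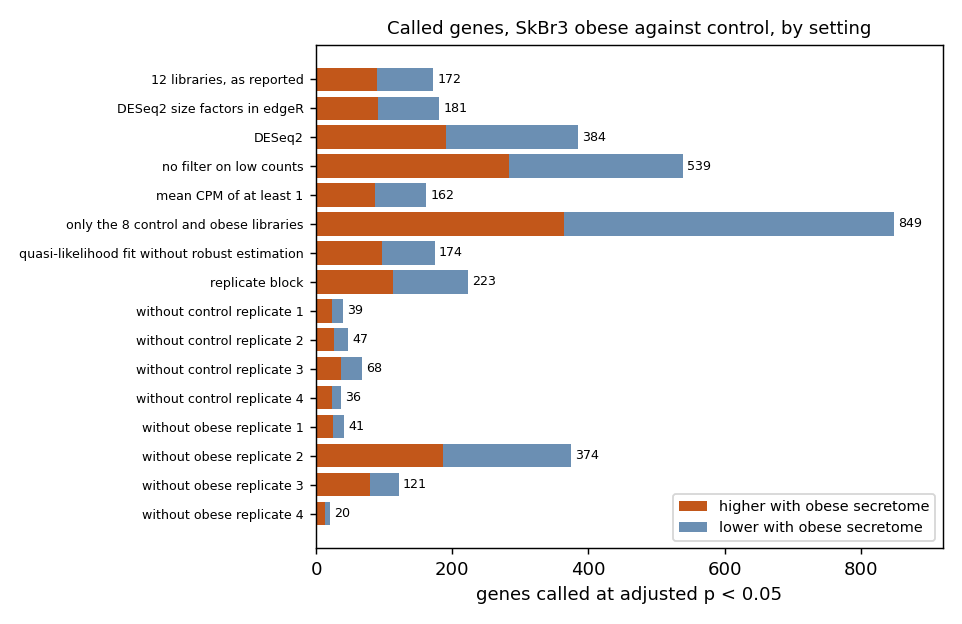
Number of genes called at an adjusted p under 0.05 for obese against control (x axis) in the reported fit and in 15 other settings (y axis), split into genes higher and lower with the obese secretome. The reported count is 172, and the counts run from 20 without obese replicate 4 to 849 in a fit of the 8 control and obese libraries alone.

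The spread that enters the test came from all 3 media. The median over genes of the SD of log2 CPM within a group was 0.0830 in control medium, 0.0944 with the obese secretome and 0.121 with the lean secretome. A fit of the 8 control and obese libraries alone called 849 of 14307 genes tested, 364 higher and 485 lower. The 849 held all 172. There 42.9% of the calls were higher, against 52.3% with 12 libraries. The part of the lean libraries' spread in the lower count was not tested.

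ENSG00000183625 had the largest increase of the called genes whose log2 CPM averaged at least 1 over the 8 libraries. It stood at 1.59, 1.94, 1.75 and 2.14 CPM in control replicates 1 to 4 and at 2.76, 2.67, 2.79 and 4.45 CPM in obese replicates 1 to 4, from raw counts of 32 to 50 and of 61 to 129. The groups did not overlap, and obese replicate 4 stood well above the other obese libraries. The means were 1.86 ± 0.239 CPM (SD, n = 4) in control medium and 3.17 ± 0.857 CPM with the obese secretome. The log2 fold change was 0.78 (SE 0.189, edgeR adjusted p = 0.0452). It fell to 0.55 without obese replicate 4 (adjusted p = 0.247), and the call held in 1 of the 8 fits that leave out a library, with adjusted p from 0.0237 to 0.247, and in 7 of 15 settings in all.

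ENSG00000101210 had the smallest p among the increases called in all 8 such fits. It stood at 108.5, 116.7, 116.3 and 96.3 CPM in the controls and at 157.6, 135.2, 145.6 and 159.1 CPM in the obese libraries. Every obese library was above every control, with obese replicate 2 the nearest. The means were 109.4 ± 9.56 CPM (SD, n = 4) and 149.4 ± 11.2 CPM, a log2 fold change of 0.45 (SE 0.0576, edgeR adjusted p = 0.00393). It passed in all 15 other settings, but these include the 8 fits it was chosen by, where passing was fixed by the choice. The smallest adjusted p, 7.74e-22, came from edgeR with no filter on low counts (31390 genes tested) and is not read as stronger support. The largest, 0.0291, came from edgeR without obese replicate 4.

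ENSG00000173193 had the largest decrease by the same rule. It stood at 5.74, 5.59, 6.20 and 5.93 CPM in the controls and at 4.16, 4.28, 4.28 and 3.24 CPM in the obese libraries. The groups did not overlap, and obese replicate 4 was again the farthest out. The means were 5.86 ± 0.261 CPM (SD, n = 4) and 3.99 ± 0.501 CPM, a log2 fold change of -0.56 (SE 0.12, edgeR adjusted p = 0.0252). Without obese replicate 4 the change was -0.46 (adjusted p = 0.152), and the gene passed in 2 of the 8 fits that leave out a library, with adjusted p from 0.0171 to 0.152, and in 9 of 15 settings in all.

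ENSG00000002834 had the smallest p among the decreases called in all 8 fits. It stood at 291.1, 283.7, 291.7 and 279.5 CPM in the controls and at 219.8, 256.1, 246.9 and 221.5 CPM in the obese libraries. Obese replicates 1 and 4 were the lowest, and all 4 obese libraries lay below all controls. The means were 286.5 ± 5.91 CPM (SD, n = 4) and 236.1 ± 18.2 CPM, a log2 fold change of -0.28 (SE 0.0424, edgeR adjusted p = 0.00393). It passed in all 15 other settings, which again include the 8 fits it was chosen by. The smallest adjusted p, 1.87e-08, came from edgeR with no filter on low counts and is not read as stronger support. The largest, 0.0291, came from edgeR without obese replicate 4.

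**Figure D4:**
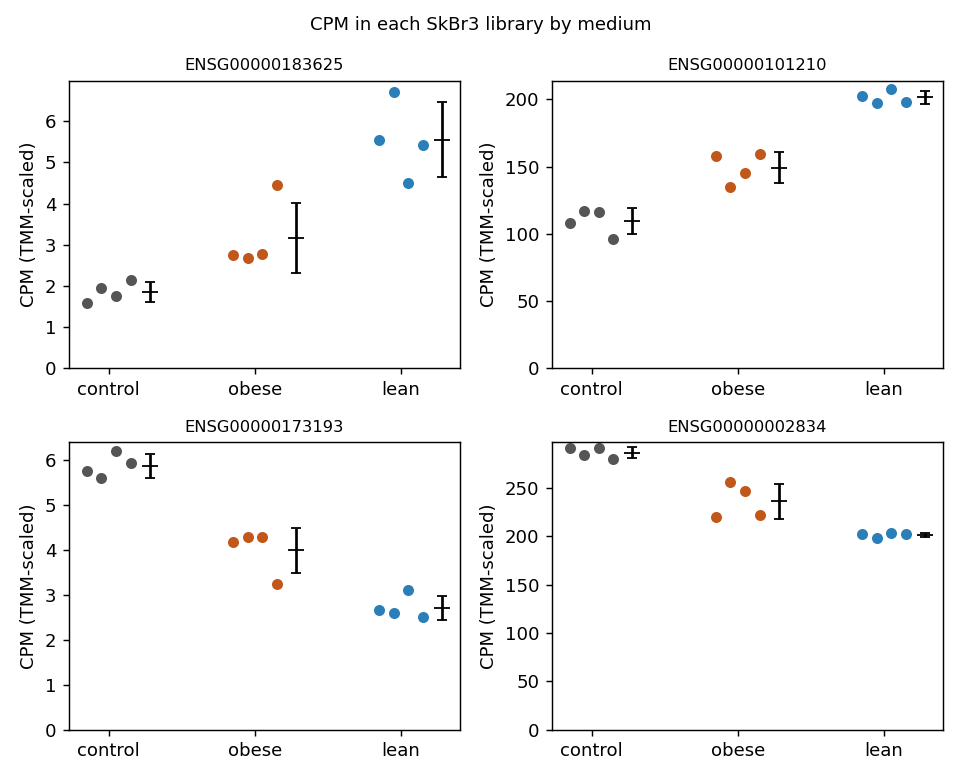
CPM scaled by TMM factors (y axes from 0) of the 4 named IDs in each SkBr3 library by medium (x axes), with the mean and SD of 4 libraries beside the points. The obese libraries lie apart from the controls in each panel, and obese replicate 4 stands apart from the other obese libraries for ENSG00000183625 and ENSG00000173193.

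The 12 largest increases among the 84 called genes above the same minimum level had log2 fold changes of 0.52 to 0.78, and 1 of them was called in all 8 fits. The 12 largest decreases among 82 had changes of -0.56 to -0.30, and none was called in all 8. In these 24 genes the control and obese libraries did not overlap. That held for 167 of the 172 called genes and for 1629 of all 14874 tested (11.0%), so it adds no support. Over all called genes, 11 of 90 increases and 7 of 82 decreases were called in all 8, so nothing is read from these shares.

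The difference between the lean and the obese effect was tested for the 4 IDs in the contrast of lean with obese secretome. That contrast compares only the lean and obese libraries. The controls still entered its filter, scaling and estimate of the spread, as part of the fit of all 12 libraries. ENSG00000183625 reached 5.55 ± 0.914 CPM in the lean group (SD, n = 4), a log2 fold change of lean over control of 1.58 and of lean over obese of 0.80 (SE 0.159, edgeR adjusted p = 0.000325). ENSG00000101210 was at 201.6 ± 4.98 CPM, with changes of 0.88 over control and 0.43 over obese (SE 0.0563, edgeR adjusted p = 1.1e-05). ENSG00000173193 was at 2.71 ± 0.266 CPM, with changes of -1.12 and -0.56 (SE 0.132, edgeR adjusted p = 0.00151). ENSG00000002834 was at 201.7 ± 2.03 CPM, with changes of -0.51 and -0.23 (SE 0.0426, edgeR adjusted p = 0.000182). For each of the 4 the mean with the obese secretome lay between those of control medium and lean secretome. The lean and obese effects share the controls, and the IDs were chosen for their obese effect, so this order is a description of these genes.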

How the data were processed

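The authors deposited raw counts per Ensembl gene ID, with no normalization, in 1 human table of 61552 IDs and 12 SkBr3 libraries, per the file headers. The RNA was poly(A) selected, prepared with a directional kit and sequenced with paired 150 bp reads, per the labels' protocols. The submitters' processing notes name cutadapt 1.16, STAR 2.7.9a and featureCounts 1.6.3; the only build they name, also for the human libraries, is the mouse build GRCm39. The human build, annotation release and strand setting are not given in the sources used here, so no coordinates are given. Reads of overlapping, antisense or near-identical genes may be split between IDs.

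Groups came from the titles. The 12 libraries (3 media) were fitted with edgeR 4.0.16 under R 4.3.3: filterByExpr kept 14874 genes, which held at least 99.88% of each library's counts, TMM factors ran from 0.988 to 1.02, and a robust quasi-likelihood F test gave obese against control, adjusted by Benjamini-Hochberg over all genes tested. The common biological coefficient of variation was 0.0543. Log2 CPM used a prior count of 2. Intervals from replicates include counting error; reads carry no molecular identifiers. Alternatives were DESeq2 1.42.0, its size factors in edgeR, other count filters, a fit of 8 libraries, no robust estimation, a replicate block and leaving out each library.

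Named IDs follow a rule with the first ID in each direction of 2 of its parts: the largest change of called genes whose log2 CPM averaged at least 1, and the smallest p among genes called in all 8 leave-one-out fits. The rule's gene lists, ferroptosis genes, mitochondrial share and mouse comparison need human names and were not run. A table of human names was not used, so 0 human IDs were matched to a name. The groups, rule and lists were chosen with earlier results of these data known. On simulated data with 14874 genes, edgeR recovered 61.2%, 74.6% and 75.8% of genes changed by a fold of 1.25, 1.5 and 2, and 4.73% of calls were false. The simulation gave all media the same spread and set no library apart. Its smallest fold was above the median change of the called genes. These shares therefore need not hold for the reported calls.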

Additional observations from a re-analysis of the deposited data

Results flagged for a closer look

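A library stood far from the rest of its group, by Dixon's criterion, in 2 of 21 sets of 4 libraries examined. Chance flags about 1 in 20 sets of libraries, but that share does not apply here: both sets belong to IDs picked for the size of their change, which favours genes with an obese library far out. ENSG00000183625 was at 4.45 CPM in obese replicate 4, against 2.67 to 2.79 CPM in the other obese libraries. ENSG00000173193 was at 3.24 CPM in the same library, against 4.16 to 4.28 CPM in the others. Without that library the log2 fold changes were 0.55 and -0.46, and neither ID was called; the call was also lost in most other fits that left out a library (7 of 8 in all for ENSG00000183625, 6 of 8 for ENSG00000173193).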

How the results depend on the processing

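The count of 172 called genes, of 14874 tested, became 384 under DESeq2 (2019 adjusted p not given). It became 539 of 31390 tested with no filter on low counts. A fit of the 8 control and obese libraries alone called 849 of 14307. Leaving out 1 library gave 20 to 374, of 15084 to 15157 tested. The cause was not tested. These settings shared 171, 169 and 172 genes with the reported 172. DESeq2 size factors in edgeR (181), a mean CPM of at least 1 (162) and no robust estimation (174) stayed within 1.5 times, and shared 171, 160 and 142 genes with the 172. Same-numbered control and obese libraries had residual correlations of -0.0399 to 0.0523 across genes and 2 of 8 libraries correlated best with their own number, so the numbers were not taken as pairs; the replicate block called 223 genes, 159 of them shared. The difference in the share of the 10 most abundant genes, obese minus control, ran from -0.0455 to 0.0319 percentage points when 1 library was left out, and turned sign without control replicate 2 or obese replicate 1. ENSG00000183625 also missed the threshold without robust estimation (adjusted p = 0.052). With 4 libraries a side, the standard error of the log2 fold change had a median of 0.0766, so most changes of the median size over all genes were not detectable.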
